A study of Mus musculus with 6 samples.

Results

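The genes described here are the ligands of the tumour necrosis factor (TNF) superfamily and their receptors, as transcribed in T-ALL, a leukaemia of immature T cells, in the mouse with and without the chromatin-associated protein PHF6. Members were the rows whose gene symbol begins with Tnfsf or Tnfrsf and a digit, together with Tnf, Lta, Ltb, Ltbr, Fas, Fasl, Cd27, Cd40 and Cd40lg, and with a mean of at least 3 normalised reads over the 6 libraries. The rule gave 38 of the 23306 genes in the table: 16 ligand rows, of which Tnfsf13os is an antisense transcript, and 22 receptors. The lowest was Tnfsf13, with a mean of 3.41, and no row that matched the names lay under the minimum. Cd70, Eda2r and Ngfr were not analysed here.

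PolyA RNA was sequenced from T-ALL tumours on the C57BL/6 background, collected from bone marrow and described by the submitters as isogenic. One group, with 3 libraries, kept Phf6 (wild type below). The other, also with 3 libraries, had lost it through a Cre recombinase that tamoxifen switches on (knockout below). The protocol gives either tamoxifen or its corn oil vehicle by injection into the peritoneum, so the effect of the drug cannot be told apart from that of the deletion. The sources used here do not name the driving oncogene, the promoter of the Cre or the number of animals. The column headers share a common code over both groups and carry a different number for each library. The code and these numbers were not interpreted here, so all libraries may go back to a common source. The labels do not say whether the libraries of a group came from separate mice. The p-values below therefore measure only the spread between these libraries, which may be technical.

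TNF ligands are mostly trimeric proteins anchored in the membrane, some of them shed, that cluster receptors on a neighbouring cell. One class of receptor carries an intracellular death domain and can recruit caspases through FADD or TRADD; another binds TRAF adaptor proteins and passes the signal to IkB kinases and NF-kB; a few have no working tail and act as decoys. In the T lineage the family supplies costimulation (CD27, CD30, OX40, GITR, 4-1BB), the trigger for removal of activated cells (FAS and its ligand) and help to B cells and dendritic cells (CD40 ligand).

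Each library held between 46067511 and 54953145 reads assigned to genes. Phf6 had 5508, 4240 and 5075 normalised reads in the wild-type libraries 1 to 3 and 1781, 2337 and 1755 in the knockout libraries 1 to 3. The log2 fold change was -1.34 ± 0.13 (SE; limma with Benjamini-Hochberg adjustment, adjusted p = 0.00184), with every knockout library below every wild-type one and transcript remaining in the knockout. Transcripts of the T lineage were abundant in every library, and Cd3e ranged from 16560 to 21008 normalised reads. RNA of other cells also differed between the groups. Marker sums are in CPM, here reads scaled to library sizes that were adjusted by TMM factors. For 20 neutrophil markers the sums were 136 to 503 CPM in the wild type and 1085 to 1424 in the knockout, and 10 of them rose. The corresponding sums for 18 monocyte and macrophage markers were 60.3 to 129.95 and 189 to 321, and 6 of these rose. Library number 2 stood apart from numbers 1 and 3 in both groups for several members, so results that move with it are given with and without the number-2 libraries.

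Of the 38 members, 33 passed the filter on low values (at least 10 normalised reads in at least 3 libraries) and were tested, and 2 of these, the ligand gene Cd40lg and the receptor gene Tnfrsf1a, rose in the knockout. None fell. The members that rose made up 6.06% of those tested, near the background: 5.32% of the 17993 genes tested rose and 3.43% fell. With library totals in place of the authors' scaling, 3 members rose (Cd40lg, Tnfrsf1a and Fas, the last at an adjusted p of 0.0448) and 0 fell, against 6.74% and 1.67% of all genes. By DESeq2 the same 3 members rose and 2 fell, Tnfrsf19 and Tnfsf10, against 7.39% and 5.02% of all genes. The quasi-likelihood test of edgeR called 2 higher and 0 lower, against 5.32% and 2.84%. At an unadjusted p under 0.05 limma had 7 members higher and 3 lower, against 12.7% and 12.5%. Here as in all bulk RNA, fewer cells of a type and less RNA per cell cannot be told apart.

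The members leaned towards higher values in the knockout. The log2 fold change was above 0 for 24 of 33 members (72.7%) and for 48.3% of all genes tested. Its median over the tested members was 0.23, beside -0.01 over all genes. The 3 knockout libraries lay above all 3 wild-type libraries for 9 members (27.3%, against 15.0% of all genes), and below them for 3 members (9.09%, against 16.2%). A member can enter these counts through its higher group alone, as Cd40lg did. With the filter loosened to a mean of 3 reads, 4 of the 5 untested members had positive differences and Tnfrsf25 a negative one.

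**Figure D1:**
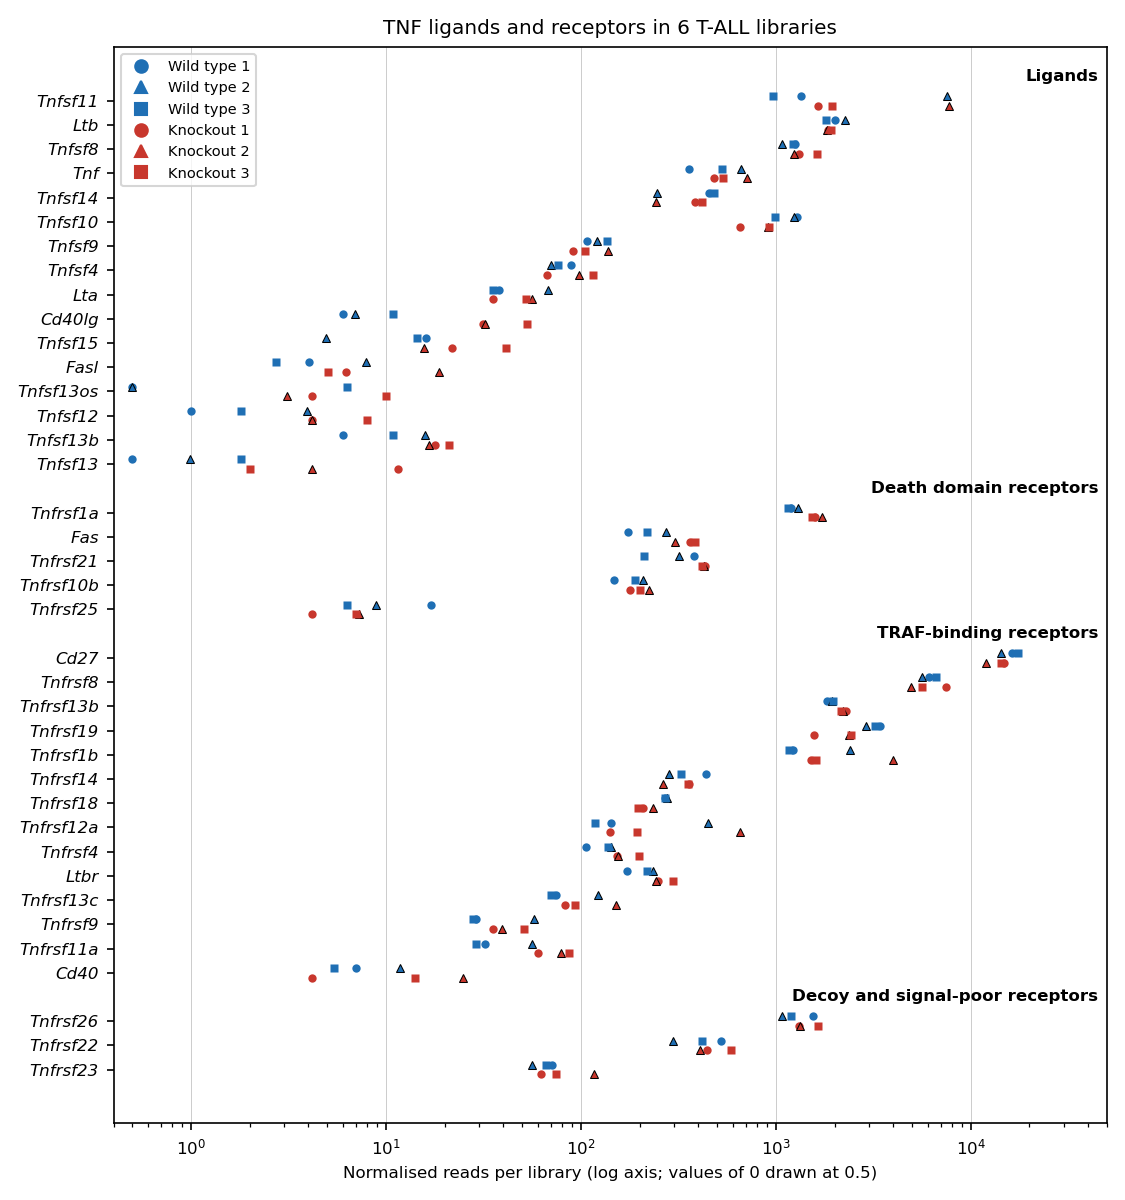
Normalised reads of the 38 members in each library, on a log axis; each point is 1 library, colour gives the group and shape the library number, and values of 0 are drawn at 0.5. Cd40lg is separated between the groups, while the triangles of Tnfsf11, Tnfrsf12a and Tnfrsf1b, which are the number-2 libraries, stand far right of the other libraries in both groups.

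Among the ligands, 1 of 12 tested rose (8.33%, against 5.32% of all genes) and none fell. Of the 12, 8 had positive and 4 negative log2 fold changes, and the median was 0.20. Cd40lg (chromosome X, 57212143 to 57224042, plus strand, GRCm38) encodes the ligand that activated helper T cells show to B cells. It had 6.01, 6.91 and 10.8 normalised reads in the wild type and 31.3, 32.2 and 53.2 in the knockout. In the wild type only library 3 reached 10 normalised reads, so Cd40lg passed the filter through its knockout values. Every knockout library lay above every wild-type one. The mean went from 7.92 ± 2.57 to 38.9 ± 12.4 (SD, n = 3 each), a ratio of 4.91, and the log2 fold change was 2.03 ± 0.34 (SE; limma adjusted p = 0.00873). This was a change at a low level, since Cd40lg averaged 0.389 RPKM (reads per kilobase of exon, scaled to library size) over the 6 libraries. Without knockout library 3 the log2 fold change was 1.8 and the adjusted p 0.0607. The summed T-lineage markers were 6505 to 6818 CPM in the wild type and 5555 to 6167 in the knockout, and 0 of 15 rose while 3 fell. The neutrophil and monocyte sums given above were higher in the knockout, and of 12 B-cell markers tested 8 rose and 1 fell. The part of any cell type in the Cd40lg result was not tested.

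Tnfsf10 (chromosome 3, 27317028 to 27342427, plus strand) encodes TRAIL, a ligand of death receptors. It had 1280.2, 1242 and 994 normalised reads in the wild type and 652, 912 and 919 in the knockout. The groups did not overlap, with the knockout below. The log2 fold change of -0.51 ± 0.16 did not pass (limma adjusted p = 0.0745), although DESeq2 called it (0.0355). With library totals as scaling Tnfsf10 had a log2 fold change of -0.43 (limma adjusted p = 0.127). Its receptor gene Tnfrsf10b had 147, 207 and 189 against 179, 223 and 201 normalised reads, and these values overlapped.

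Tnfsf15, whose product TL1A binds death receptor 3, had 16.0, 4.94 and 14.5 against 21.9, 15.6 and 41.1 normalised reads (log2 fold change 1.05 ± 0.47, limma adjusted p = 0.195). Tnfsf13b, encoding the B-cell survival factor BAFF, had 6.01, 15.8 and 10.8 against 17.7, 16.6 and 21.1, without overlap (0.74, adjusted p = 0.249). Tnfsf8, encoding CD30 ligand, had 1260.2, 1074 and 1220.1 against 1316, 1245 and 1622 (0.23, adjusted p = 0.275). None of these 3 passed the test, and the first and the second stood at under 50 normalised reads in every library.

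The genes for lymphotoxin beta, TNF and lymphotoxin alpha lie side by side on chromosome 17, 3.06 and 1.16 kb apart. Ltb, which anchors the lymphotoxin heterotrimer in the membrane, had 2011, 2264 and 1808 normalised reads in the wild type and 1844, 1833 and 1925 in the knockout. Its log2 fold change was -0.11, with a 95% confidence interval from -0.34 to 0.11. Tnf, encoding the cytokine that names the family, had 356, 665 and 531 against 483, 707 and 537 (0.18, interval -0.35 to 0.71). Lta had 38.0, 68.1 and 35.2 against 35.5, 56.1 and 52.2 (0.06). All 3 neighbours overlapped between the groups.

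Of the death domain receptors, 4 were tested, all 4 with positive log2 fold changes (median 0.47), and 1 rose, where 5.32% of all genes rose. Tnfrsf1a (chromosome 6, 125349362 to 125362484, plus strand) encodes TNFR1, the widely expressed receptor for soluble TNF. It had 1194, 1307 and 1149 normalised reads in the wild type and 1589.8, 1724 and 1529.5 in the knockout. The groups were separate and each was tight. The means were 1216 ± 81.3 and 1614 ± 99.7 (SD, n = 3 each), a ratio of 1.33, and the log2 fold change was 0.41 ± 0.10 (SE; limma adjusted p = 0.0299). The call was lost without any 1 of 5 libraries: the adjusted p was 0.124 without wild-type 1, 0.131 without wild-type 3, and 0.0655, 0.0835 and 0.0817 without knockout 1, 2 and 3, while the log2 fold change stayed between 0.36 and 0.46. Neutrophil and monocyte markers moved with it, at the sums given above, and their part in this result was not tested.

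Fas (chromosome 19, 34290666 to 34327772, plus strand), the receptor through which FAS ligand starts apoptosis of activated lymphocytes, had 175, 275 and 218 normalised reads in the wild type and 364, 303 and 386 in the knockout. All knockout values lay above the wild-type ones, the nearest pair being the number-2 libraries. The log2 fold change was 0.67 ± 0.19 (limma adjusted p = 0.0573), the ratio of means was 1.58, and with both number-2 libraries left out it passed at 0.93 (adjusted p = 0.0101, 2 against 2 libraries). Leaving out wild-type library 2 alone was enough for Fas (0.83, adjusted p = 0.0194) and for Tnfrsf11a, described below (1.24, adjusted p = 0.0179). Without knockout library 3 the limma adjusted p of Fas was 0.199. Leaving out 1 library gave log2 fold changes of 0.51 to 0.83 for Fas and 0.78 to 1.24 for Tnfrsf11a. Tnfrsf21, encoding death receptor 6, had 381, 320.0 and 209.7 against 431, 427 and 416 (0.52 ± 0.20, adjusted p = 0.144). There the knockout libraries were nearly equal and all above the wild type, which was spread.

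The 14 TRAF-binding receptors tested gave no call in either direction, with 9 positive and 5 negative log2 fold changes and a median of 0.25. Tnfrsf19 (chromosome 14, 60963875 to 61046490, minus strand), encoding TROY, an orphan receptor best known from stem cells and the nervous system, had 3407, 2886 and 3211 normalised reads in the wild type and 1569, 2385 and 2433 in the knockout. The knockout values lay below all wild-type values, with number 1 lowest. The log2 fold change was -0.60 ± 0.17 (limma adjusted p = 0.0597, DESeq2 0.0122). Without the number-2 libraries it was -0.76 and passed (limma adjusted p = 0.0485). With library totals as scaling it was -0.51 and did not pass (limma adjusted p = 0.105).

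Tnfrsf11a, encoding RANK, had 32.0, 56.3 and 28.9 normalised reads in the wild type and 60.5, 78.9 and 87.3 in the knockout. The groups did not overlap, but the level was low (0.196 RPKM). Its log2 fold change was 0.96 ± 0.29 (limma adjusted p = 0.0717), and 1.2 without the number-2 libraries, where it passed (adjusted p = 0.0300). Monocyte and macrophage markers, at the sums given above, moved with Tnfrsf11a, which that lineage expresses, and their part was not tested.

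Receptors known from B cells were present. Tnfrsf13b, encoding TACI, had 1838, 1946 and 1958 normalised reads in the wild type and 2301, 2202 and 2165 in the knockout, a narrow but complete separation (log2 fold change 0.22 ± 0.08, limma adjusted p = 0.133). Among the B-cell markers, Ms4a1 had 5.0, 4.94 and 0 against 18.8, 75.8 and 36.1. Ebf1, a transcription factor gene of the B lineage, had 1.0, 3.95 and 0 against 5.22, 41.5 and 23.1. Higher in reads were Igkc, with 228, 119 and 136 against 342, 321 and 441, and Cd79a, with 48.0, 56.3 and 47.0 against 72.0, 166 and 103. The part of B cells in the Tnfrsf13b values was not tested. Over 16 B-cell markers the summed level was 346 to 437 CPM in the wild type and 251 to 323 in the knockout, and of the 12 tested 8 rose and 1 fell. The gene that fell, Ighm, encoding the immunoglobulin mu heavy chain, carried most of that sum, with 18597, 16702 and 20861 normalised reads in the wild type and 14563, 10831 and 14302 in the knockout. Cd40, the receptor for Cd40lg on B cells and myeloid cells, had 7.01, 11.9 and 5.42 against 4.17, 24.9 and 14.0, and Tnfrsf13c, encoding the BAFF receptor, had 74.1, 122 and 70.5 against 82.4, 152 and 93.3. Both overlapped between the groups, with log2 fold changes of 0.51 and 0.28, and leaving out 1 library gave 0.03 to 1.09 for Cd40 and 0.024 to 0.53 for Tnfrsf13c.

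None of the costimulatory receptors passed the test. Cd27 (chromosome 6, 125232622 to 125237010, minus strand), the highest member, had 16351, 14246 and 17493 normalised reads in the wild type and 14820.2, 12041 and 14339.8 in the knockout. The groups overlapped and the log2 fold change was -0.22, with an interval from -0.46 to 0.02 (limma adjusted p = 0.229). Tnfrsf8, encoding CD30, had 6126, 5612 and 6599 against 7476, 4937 and 5598 (-0.04, interval -0.37 to 0.28). Tnfrsf18 and Tnfrsf4, encoding GITR and OX40, are 9.55 kb apart on chromosome 4 and had opposite signs.

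Tnfrsf18 had 269, 276 and 268 normalised reads in the wild type and 208, 234 and 197 in the knockout, with the knockout lower and no overlap (-0.35 ± 0.15, limma adjusted p = 0.169). It shares 414 exonic bases with the antisense gene Gm16008, and without a stated strand setting the reads of the pair cannot be told apart. Tnfrsf4 had 106, 142 and 138 against 152, 155 and 198, with the knockout higher and no overlap (0.38 ± 0.20, adjusted p = 0.260). Ltbr, the lymphotoxin beta receptor, had 172, 234 and 218 against 248, 242 and 296, also without overlap (0.34, adjusted p = 0.260). None of the 3 passed. Among the rest, Tnfrsf9, encoding 4-1BB, had a log2 fold change of 0.19, and Tnfrsf14, encoding the herpesvirus entry mediator, one of -0.09.

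All 3 decoy and signal-poor receptors had positive log2 fold changes (median 0.23) and none was called. They lie in 1 cluster on chromosome 7, 6.08 and 16.1 kb apart, and are closely related copies whose reads may have been split or discarded in counting. Tnfrsf26 had 1547, 1069.5 and 1199 normalised reads in the wild type and 1312, 1324 and 1649 in the knockout (0.18). Tnfrsf22 had 525, 297 and 418 against 444, 406 and 586 (0.23), and Tnfrsf23 had 71.1, 56.3 and 66.0 against 62.6, 116 and 74.2 (0.34). The groups overlapped for each.

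**Figure D2:**
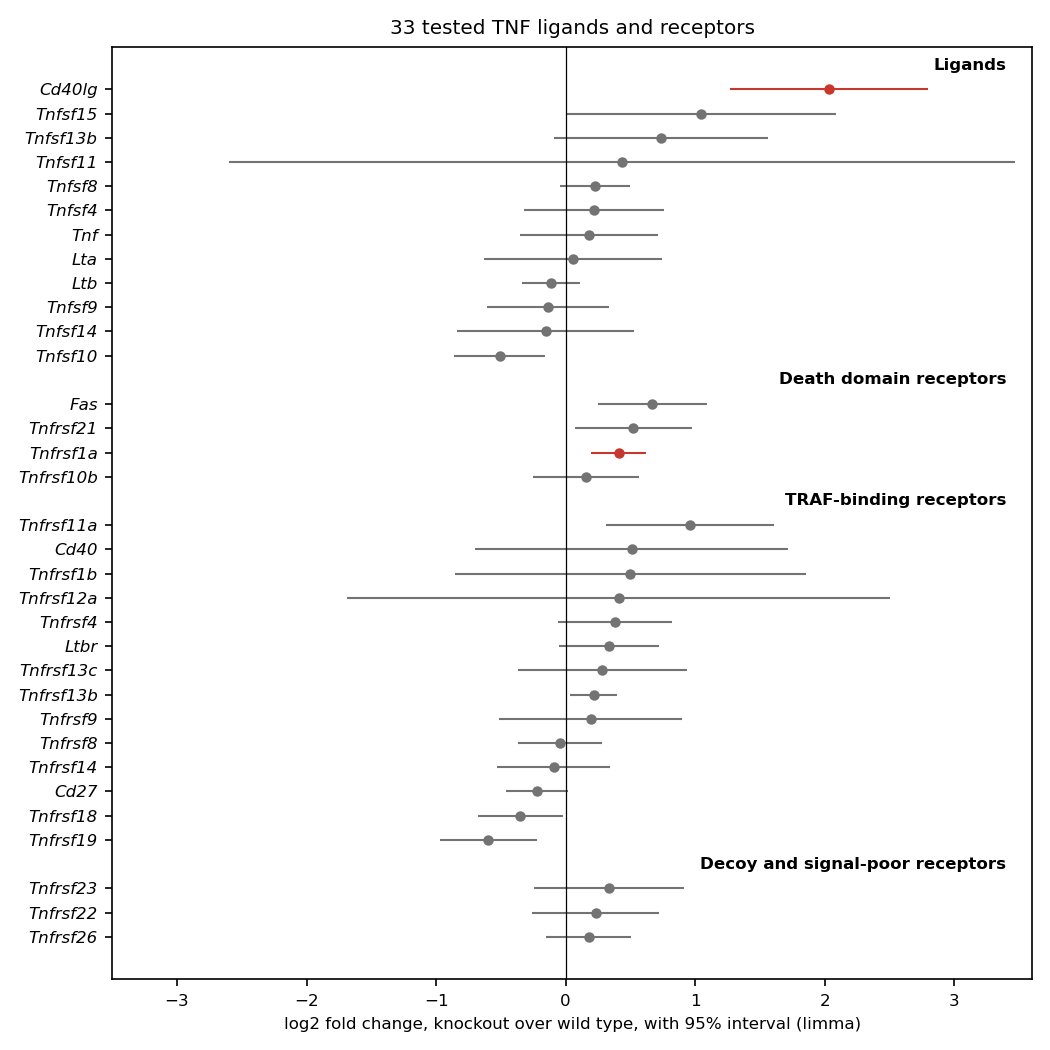
log2 fold change of the 33 tested members, knockout over wild type, with its 95% confidence interval from limma; red marks adjusted p under 0.05. Cd40lg (2.03) and Tnfrsf1a (0.41) are marked, and the intervals of Tnfsf11 (-2.60 to 3.46) and Tnfrsf12a (-1.68 to 2.50) are the widest.

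The 5 members under the filter on low values were the ligand rows Fasl, Tnfsf12, Tnfsf13 and Tnfsf13os and the receptor gene Tnfrsf25. None exceeded 20 normalised reads in any library. Tnfsf13, encoding APRIL, had 0, 0.988 and 1.81 normalised reads in the wild type and 11.5, 4.15 and 2.01 in the knockout. Tnfsf12, encoding TWEAK, had 1.0, 3.95 and 1.81 against 4.17, 4.15 and 8.02. Both had knockout values above all wild-type values, though the nearest libraries differed by a fraction of 1 normalised read. Before scaling, those nearest libraries held equal numbers of reads, so their order came from the scaling alone. With the filter loosened to a mean of 3 reads, the adjusted p was 0.194 for Tnfsf13 and 0.326 for Tnfsf12. Each of them shares exonic bases with the read-through gene Tnfsfm13 on the same strand (983 for Tnfsf13 and 731 for Tnfsf12), and Tnfsf13 shares 221 with Tnfsf13os on the opposite strand. Reads in these overlaps may have been left out or assigned to the other gene.

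Levels between genes were compared per length, as the mean RPKM over the 6 libraries. Cd27 was highest at 129.6, followed by Tnfrsf8 at 35.6, Tnfsf11 at 31.8, Ltb at 26.0 and Tnfrsf13b at 14.8. The ranges over libraries separated Cd27 (106 to 151) from all others, but not Tnfrsf8 (29.2 to 45.0) from Tnfsf11 (8.75 to 70.4), nor Tnfsf11 from Ltb (24.0 to 29.0). In all, 22 members reached 1 RPKM in every library and 7 averaged under 0.1.

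Ligands and their receptors were often unequal. Tnfrsf11a averaged 0.196 RPKM beside 31.8 for its ligand gene Tnfsf11 (RANKL), a ratio of 0.00618. The reverse held for Tnfrsf13b, at 14.8 beside 0.0437 for Tnfsf13b, and for Tnfrsf12a, encoding the TWEAK receptor FN14, at 2.96 beside 0.0524 for Tnfsf12. Fas averaged 2.84 and Fasl 0.0780. Both sides were present for CD30 (Tnfrsf8 35.6, Tnfsf8 6.90), for TNF (Tnfrsf1a 11.1, Tnfrsf1b 10.5, Tnf 6.77) and for the herpesvirus entry mediator (Tnfrsf14 4.76) with its ligand gene Tnfsf14, encoding LIGHT (4.08).

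**Figure D3:**
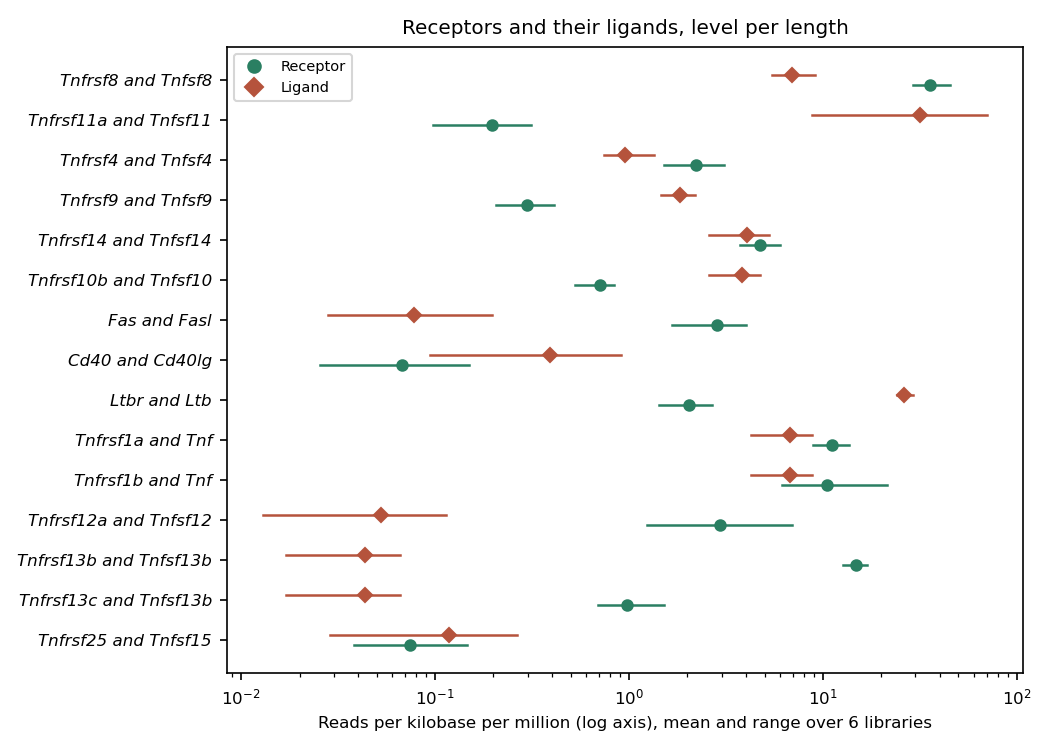
Mean level per length of receptors (green circles) and their ligands (red diamonds), in RPKM on a log axis, with lines from the lowest to the highest of the 6 libraries. The ranges of Tnfrsf11a and Tnfsf11, and those of Tnfrsf13b and Tnfsf13b, lie far apart in opposite directions, whereas those of Tnfrsf14 and Tnfsf14 overlap.

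The widest spread within groups belonged to library number 2. A gene was counted as high there when its number-2 library had at least 1.5 times the value of each other library of its group, in both groups; this rule was chosen after the values had been seen and is a description. It held for 5 of the 33 tested members (15.2%) and for 2.18% of all genes tested. Tnfsf11 (chromosome 14, 78277445 to 78308043, minus strand), encoding RANKL, a ligand induced in activated T cells, had 1352, 7576 and 972 normalised reads in the wild type and 1639.8, 7700.4 and 1938 in the knockout. The number-2 library was 6.52 times the mean of the others in the wild type and 4.30 times in the knockout, while the groups overlapped (log2 fold change 0.43 ± 1.12).

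Tnfrsf1b, encoding TNFR2, had 1227, 2399 and 1165 normalised reads in the wild type and 1507, 3985 and 1615 in the knockout, ratios of 2.01 and 2.55. Tnfrsf12a had 143, 447 and 118 against 141, 651 and 195, ratios of 3.42 and 3.88. The 2 others were Cd40 and Tnfrsf13c, at the values given above. Tnfsf14 went the other way, with 451, 246 and 482 against 384, 242 and 417. With both number-2 libraries left out, 6 members rose (Cd40lg, Fas, Tnfrsf11a, Tnfrsf1a, Tnfrsf1b and Tnfsf11) and 1 fell (Tnfrsf19), against a background of 6.96% of all genes rising and 5.41% falling. In that fit of 2 against 2 libraries the log2 fold change was 0.64 for Tnfsf11 (limma adjusted p = 0.0283) and 0.38 for Tnfrsf1b (0.0410).

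**Figure D4:**
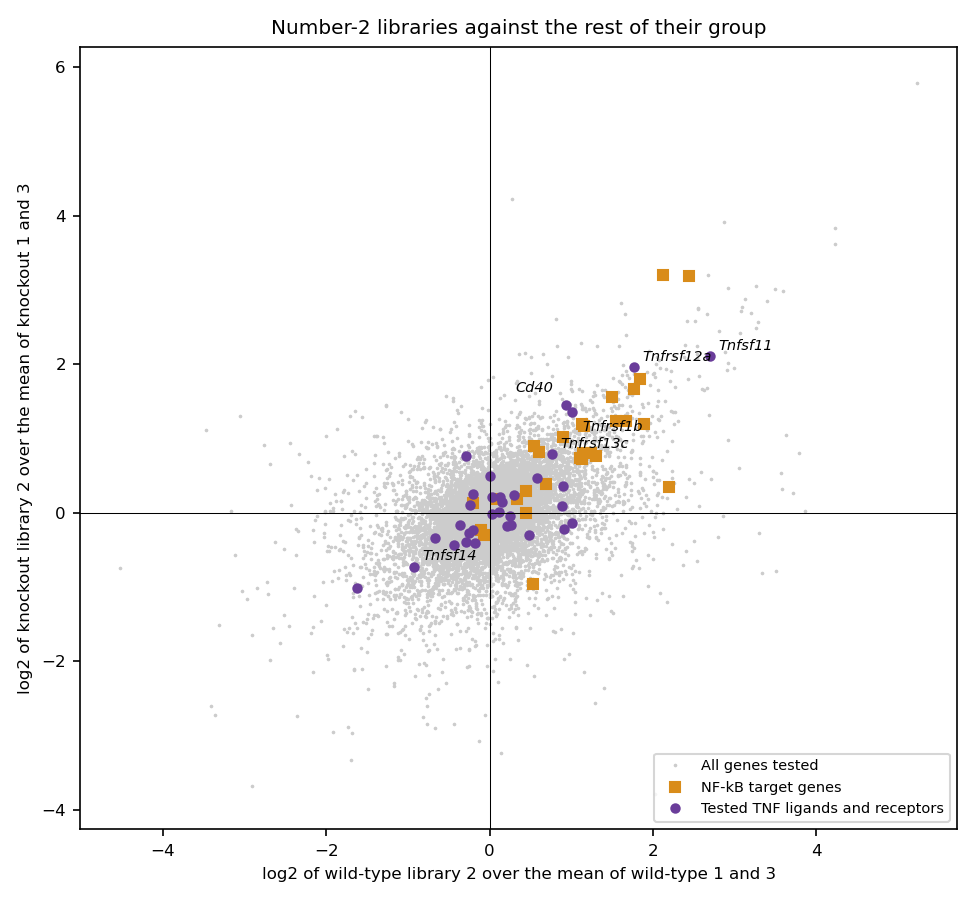
log2 of the number-2 library over the mean of libraries 1 and 3, in the wild type (horizontal) and the knockout (vertical); each point is 1 tested gene, with members in purple and NF-kB target genes in orange. Tnfsf11, Tnfrsf12a, Tnfrsf1b, Cd40 and Tnfrsf13c lie to the upper right along with many NF-kB targets, and Tnfsf14 lies to the lower left.

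The genes through which these receptors signal were read from 5 further lists, some of which share genes. Of 12 TRAF adaptor genes tested none was called (6 positive, 6 negative, median log2 fold change -0.02). The same was true of 20 genes of the IkB kinases and NF-kB subunits (median 0.02), of 14 genes of linear ubiquitin chains and deubiquitinases (median -0.03) and of 28 NF-kB target genes (17 positive, 11 negative, median 0.14). In the death complex list, which also holds the member Fas, 1 of 19 rose (5.26%). Over the 83 genes of these lists together, with the members left out, the counts were 1 higher (1.2%) and 0 lower. Of all genes tested, 5.32% rose and 3.43% fell. The median over the 83 genes was 0.03 beside -0.01 over all genes.

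The gene that rose was Mlkl, encoding the pseudokinase that breaches the membrane in necroptosis after activation by RIPK3. It had 21, 28.6 and 12.7 normalised reads in the wild type and 89.7, 98.7 and 100.3 in the knockout. The groups were far apart, with means of 20.8 ± 8.0 and 96.2 ± 5.7 (SD, n = 3 each). The log2 fold change was 2.17 ± 0.29 (SE; limma adjusted p = 0.00428), and it stayed between 1.89 and 2.42 when each library was left out. Ripk3, its activating kinase, had a log2 fold change of -0.19 and did not pass (adjusted p = 0.191). The neutrophil and monocyte markers moved with Mlkl, at the sums given above, and their part was not tested.

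Other genes with the smallest p of their lists did not pass. Among the TRAF adaptors, Tradd, which links TNFR1 to its signalling complex, had a log2 fold change of -0.29 (limma adjusted p = 0.0800). In the death complex list the BH3-only gene Bid had -0.28 (0.104). Among the kinases, Tbk1 had a log2 fold change of 0.28 (0.0551). Of the NF-kB targets, the chemokine genes Ccl3 and Cxcl2 had 1.47 (0.0665) and 2.01 (0.0770), and the interleukin subunit gene Ebi3 had 1.37 (0.0799). Of the ubiquitin list, Tnip2, whose product binds A20, had 0.38 (0.0595).

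NF-kB targets and subunits were also prominent among the genes high in both number-2 libraries: 14 of 28 targets (50%) and 6 of 20 kinase and NF-kB subunit genes (30.0%), with some genes on both lists, beside 2.18% of all genes tested, 0 of 12 TRAF adaptors and 0 of 19 genes of the death complex. Nfkbia, encoding the NF-kB inhibitor IkB alpha, had 17148, 31944 and 11730.1 normalised reads in the wild type and 15334, 28634 and 17383 in the knockout. Rel, encoding the subunit c-Rel, had 684, 2388 and 496 against 508, 2640.2 and 921. In both genes library 2 was highest in each group and the groups overlapped. Among markers of other cells, 3 of 20 neutrophil genes, 3 of 18 monocyte genes, 0 of 12 B-cell genes and 0 of 15 T-lineage genes were high by the same rule.

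Promoter sequences from RefSeq (GRCm38.p6) were at hand for 29 of the 38 members, and the 250 bases before the start were searched on both strands. The AP-1 motif TGANTCA stood in 4 of 29 members (Fas, Tnfsf14, Tnfrsf8 and Tnfsf13; 13.8%) and in 6.85% of all 27025 promoters. The NF-kB consensus motif stood in 2 members (Ltb and Tnfrsf8, 6.9%) and in 7.03% of all promoters. Among the 10852 promoters of tested genes the shares were 4.27% for AP-1 and 8.69% for NF-kB. Shown here are the highest of the members that are high in the number-2 libraries (Tnfsf11 and Tnfrsf1b), the promoter with both motifs (Tnfrsf8), and Fas, with matches in capitals. Each is written 5′ to 3′ on the gene's own strand, at chr14:78308044-78308293 (minus), chr4:145246871-145247120 (minus), chr4:145315165-145315414 (minus) and chr19:34290409-34290658 (plus).
Tnfsf11: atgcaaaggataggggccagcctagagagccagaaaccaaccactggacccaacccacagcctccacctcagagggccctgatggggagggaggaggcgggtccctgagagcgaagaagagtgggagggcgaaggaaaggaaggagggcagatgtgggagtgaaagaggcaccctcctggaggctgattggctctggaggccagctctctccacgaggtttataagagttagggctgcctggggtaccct
Tnfrsf1b: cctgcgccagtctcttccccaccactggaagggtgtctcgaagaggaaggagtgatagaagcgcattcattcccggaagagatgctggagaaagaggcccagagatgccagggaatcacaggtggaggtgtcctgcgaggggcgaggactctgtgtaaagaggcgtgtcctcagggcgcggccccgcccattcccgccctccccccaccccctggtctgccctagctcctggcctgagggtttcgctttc
Tnfrsf8: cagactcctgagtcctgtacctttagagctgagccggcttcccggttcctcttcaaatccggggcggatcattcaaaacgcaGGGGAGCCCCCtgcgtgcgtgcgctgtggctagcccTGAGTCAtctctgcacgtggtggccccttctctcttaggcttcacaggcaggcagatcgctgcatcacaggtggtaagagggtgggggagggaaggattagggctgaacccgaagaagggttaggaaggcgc
Fas: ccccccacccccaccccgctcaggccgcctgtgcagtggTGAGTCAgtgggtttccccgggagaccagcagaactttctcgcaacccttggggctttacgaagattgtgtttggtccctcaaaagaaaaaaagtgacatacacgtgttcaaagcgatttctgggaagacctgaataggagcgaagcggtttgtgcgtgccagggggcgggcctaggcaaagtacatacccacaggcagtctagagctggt
In Tnfrsf8 a pair of overlapping NF-kB matches begins 168 and 167 bases before the start and the AP-1 match 132 before it; in Fas the AP-1 match begins 211 before it. Tnfsf11 and Tnfrsf1b hold neither motif in this window, which says only that these letters are not there.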

How the data were processed

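Bulk polyA RNA-seq of 6 mouse T-ALL libraries, 3 per group, was read from 1 table. Per the submitters' processing notes, the tools included bcl2fastq 1.8.4, STAR 2.6.0a, featureCounts and DESeq2, with build GRCm38; the sources used here do not give the annotation or the strand setting. The NEBNext Ultra kit was used, per the labels' protocols, with paired-end sequencing. The deposited values are a signal, gene counts that the authors divided by 1 size factor per library, since steps in each column gave whole reads within 0.01. Recovered reads totalled 46067511 to 54953145 per library, and the 8 rows that name no gene held at most 0.00106% of them and were left out.

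The main test was limma 3.58.1 (R 4.3.3) with trend and robust settings on log2(value + 2), which understates changes of low genes, over the 17993 genes with at least 10 normalised reads in at least 3 libraries, with Benjamini-Hochberg adjustment and calls at 0.05. edgeR 4.0.16 and DESeq2 1.42.0 were run on recovered reads as alternatives, with other scalings, pseudocounts (0.5 and 10), filters, a block and each library left out. The script was tested on simulated data with known changes. It recovered 64 of 100 genes changed 2-fold and 27 of 100 changed 1.5-fold. Of its 106 calls, 15 were false, so small changes can be missed and some calls can be wrong. Genes with low means were not among those changed, and no pattern shared by the number-2 libraries was simulated. The recovered shares therefore do not cover low members or those that move with library 2. RPKM and CPM used recovered reads. The CPM of marker sums used TMM factors. RPKM used plain library totals and the exonic lengths of GENCODE M21, which held 23277 of 23306 gene IDs.

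Replicates differed by more than sampling noise (chi-square per degree of freedom 11.9 to 51.7). Members, gene lists and the naming rule (called members, then the smallest p up to 20, low members without overlap, the 5 highest RPKM, and up to 4 genes per pathway list) were chosen with earlier results of these data known.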

Additional observations from a re-analysis of the deposited data

How the results depend on the processing

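Against 2 members rising, 1 rose with a filter at 1 CPM, which leaves out Cd40lg, 5 with a replicate block and 6 with both number-2 libraries left out (a choice made after seeing the data); leaving out 1 library gave 0 to 4. Against none falling, DESeq2 gave 2, the replicate block 2, and the number-2 omission 1. In the pathway lists, against 1 rising, TMM scaling gave 2, library totals 3, edgeR 2, DESeq2 5, the block 8, the number-2 omission 5 and leaving out 1 library 1 to 4; against 0 falling, the block gave 2, the number-2 omission 1 and leaving out 1 library 0 to 1. Same-numbered libraries correlated at 0.012, 0.50 and 0.143 in their deviations from the group means, and only number 2 correlated best with its own number. Deviations from a mean of 3 libraries depend on each other, so these values cannot decide whether the numbers pair the libraries. The main fit used no pairing. With library totals, 300 of all genes fell, against 618. With the block 1459 rose and 1109 fell, against 957 and 618, and without the number-2 libraries 1253 and 974; leaving out 1 library gave 180 to 1155 rising and 73 to 786 falling. The sign of an uncalled log2 fold change turned for Tnfrsf8 with library totals (0.039) and without the number-2 libraries (0.025), and for Tnfrsf23 without them (-0.0064). Leaving out 1 library gave -0.065 to 0.38 for Tnf, -0.46 to 0.086 for Tnfsf14, -0.25 to 0.996 for Tnfrsf12a, -0.23 to 0.083 for Tnfrsf14, -0.27 to 1.34 for Tnfsf11, -0.21 to 0.085 for Tnfrsf8 and -0.11 to 0.34 for Lta. The cause of these moves was not tested beyond the libraries and genes each setting leaves out. Members under about 20 normalised reads rest on few reads, and with 3 libraries a group the intervals of Tnfsf11 and Tnfrsf12a were the widest.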

Other observations

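The genes that stood highest in both number-2 libraries over the others of their group included several regulators outside the TNF family. They were chosen after their values had been seen, and no test was made. Nr4a3, an orphan nuclear receptor gene induced within minutes to hours of T-cell receptor signalling, had 230.2, 7381 and 161 normalised reads in the wild type and 149, 10908 and 245 in the knockout. Cdkn1a, encoding the cell-cycle inhibitor p21, had 121, 1796 and 69.6 against 209.7, 3174 and 309. Fosl2, an AP-1 subunit gene, had 484, 6424 and 202 against 393, 9148 and 897, and Smad7, encoding an inhibitor of TGF-beta signalling, had 1618, 11254 and 384 against 968, 13627 and 2396. In each of these genes library 2 was the highest of its group and the groups overlapped. The NF-kB consensus motif was found in 16.7% of the 245 promoters of genes high in the number-2 libraries and in 8.69% of the 10852 promoters of tested genes. For the AP-1 motif the shares were 5.31% and 4.27%, and GC content was 61.6% and 59.4%. These shares are a description.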
